A study of Rattus norvegicus with 12 samples.

Results

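The comparison described here is the early response of cultured rat midbrain cells to potassium-driven depolarization: 3 depolarized cultures against 3 control cultures, all collected 30 min after the end of a 2 h treatment, over every probe set of an Affymetrix rat expression array other than the manufacturer's control rows. That gave 15866 of the 15923 rows in the table, and 6 of the 12 arrays in the series. The cells came from the ventral midbrain of E12 embryos of the CD1 rat. The litters of 4 dams were combined and split into 3 embryo groups, each cultured on its own in duplicate, and the RNA of both duplicates went onto 1 array. All cultures, controls included, were expanded for 6 days with bFGF at 20 ng/ml and the N-terminal fragment of SHH at 50 ng/ml and then kept for 3 days without either factor. At 9 days in vitro one set received 56 mM KCl for 2 h, after which that medium was changed, and the other received control medium for the same time. A further 3 depolarized and 3 control arrays, collected 2 h after the end of treatment, are used below only to ask whether the response differed later. The cultures shared 1 pool of litters and were mixed populations, so the p-values measure the spread between cultures, and a lower level of a transcript can come from less RNA per cell or from fewer cells that hold it, which cannot be told apart in bulk RNA.

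High extracellular potassium opens voltage-gated calcium channels in neurons. Calcium entry activates kinases that act on factors already present in the nucleus, among them CREB, which binds the cAMP response element (CRE), and the ETS-family partners of serum response factor. Immediate-early transcripts follow, and the proteins they encode then act on further genes. Short-lived transcripts can also fall quickly when their synthesis or stability drops. In the developing ventral midbrain, SHH and bFGF expand the precursors from which dopaminergic neurons arise.

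Levels are given as log2 units of the authors' RMA values, so a difference of 1 is 2-fold, and every difference is depolarized minus control. A value after ± is the standard error of the fit with 3 arrays against 3. A probe set was called when its adjusted p from limma fell under 0.05, and where an adjusted p is not printed beside a named rise or fall it was under that threshold. The response was broad and mostly small. Of 15866 probe sets, 3805 (24%) were called, 1720 higher (10.8%) and 2085 lower (13.1%). The median size of a called difference was 0.36, or 1.29-fold, and 72.0% of called differences were smaller than 0.5. Rises reached farther than falls. At least 1 log2 unit separated the groups at 121 probe sets called higher and 43 called lower, and at least 2 units at 17 higher and 0 lower. The range ran from 4.06 to -1.44, and the median standard error over all probe sets was 0.076. The 3 depolarized arrays lay wholly above or wholly below the 3 controls at 5846 probe sets (36.8%).

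As deposited, the balance of rises and falls differed with the level of the transcript, but not in the same way under other scalings. Among the brightest of 5 equal classes by mean level, 507 of 3173 probe sets were called higher and 347 lower. The class below it held 499 higher and 705 lower, and the middle class 372 and 659. The dimmest class held 100 and 70. After quantile normalization the brightest class turned to 433 higher and 497 lower. The dimmest turned to 84 and 92 after quantile normalization and to 81 and 93 after a loess fit to level. Median centring turned the class below the brightest to 639 higher and 573 lower. The split over all probe sets also moved: the share of called probe sets that were higher was 45.2% as deposited, 44.8% after quantile normalization, 48.2% after a loess fit to level and 58.9% (2339 higher, 1631 lower) when each array was centred on its median. The median over all probe sets was 0.01 as deposited and 0.06 after median centring. The depolarized arrays correlated with each other, and the controls with each other, at 0.9957 to 0.9979 over all probe sets, and pairs across the 2 groups at 0.9859 to 0.9882, a description over probe sets that share arrays and probe effects.

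**Figure D1:**
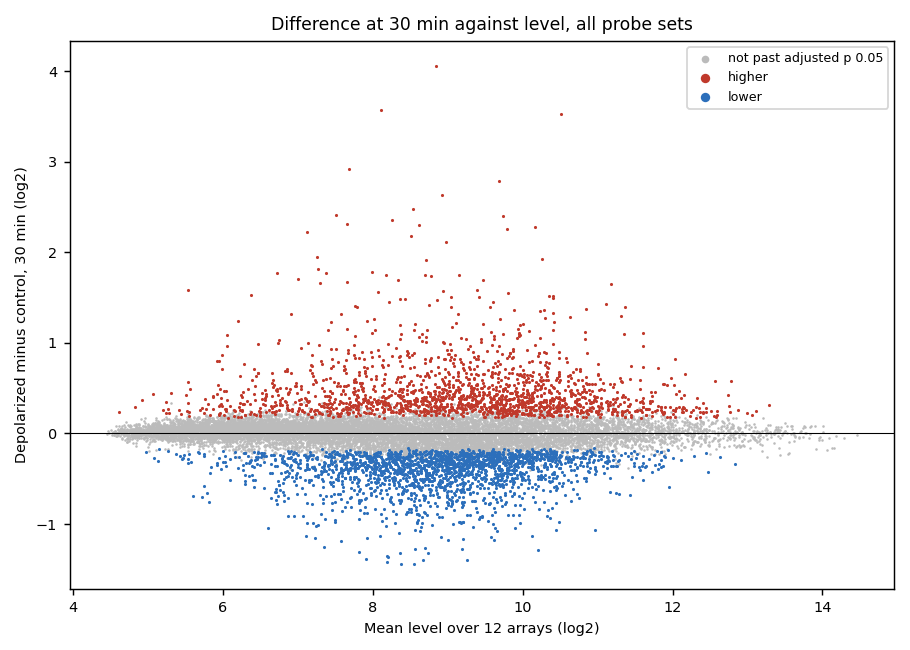
Difference at 30 min (depolarized minus control, log2) against the mean level over 12 arrays (log2) for 15866 probe sets. Red points were called higher, blue points lower and grey points not called at an adjusted p of 0.05. Rises extend to 4.06 and falls to -1.44, and most called points lie within 0.5 of 0.

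Promoter sequences were read next, because the factors activated first by calcium bind short motifs. Of 10411 genes with a probe set that names them alone, 8610 had a 300-base window in the RefSeq promoter table for build GRCr8, running from 250 bases before the start to 50 bases after. The 4 largest rises outside the immediate-early list with a CRE before the start were Slc25a25, a mitochondrial carrier of ATP-Mg and phosphate, Areg, an EGF-receptor ligand, Ppp1r15a, a stress-induced phosphatase subunit, and Scg2, a secretory granule protein. Their stretches around the CRE are shown in transcript direction with the motif TGACGTCA in capitals.
Slc25a25: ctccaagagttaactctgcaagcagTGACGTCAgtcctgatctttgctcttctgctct
Areg: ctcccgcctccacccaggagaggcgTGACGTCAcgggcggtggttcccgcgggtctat
Ppp1r15a: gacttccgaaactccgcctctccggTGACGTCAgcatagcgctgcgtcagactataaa
Scg2: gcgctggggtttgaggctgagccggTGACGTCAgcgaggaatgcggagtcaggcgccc
The stretches lie on the minus strand at chr3:36116707-36116764, chr14:17265700-17265757, chr1:105139630-105139687 and chr9:88256957-88257014, and the motifs begin 158, 91, 66 and 123 bases before the start. The 4 differences at 30 min were 1.58, 1.53, 1.51 and 1.47.

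The ETS site, CCGGAAGT, was more frequent among genes called lower than among those called higher (shares below). It is shown here before the start of Zkscan1 and Zfp612, which encode zinc finger factors, Tefm, a mitochondrial transcription elongation factor, and Dnajc14, a membrane-bound co-chaperone. The capitals mark the site, which on the first pair reads ACTTCCGG in transcript direction.
Zkscan1: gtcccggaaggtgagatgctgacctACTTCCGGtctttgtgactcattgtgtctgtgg
Zfp612: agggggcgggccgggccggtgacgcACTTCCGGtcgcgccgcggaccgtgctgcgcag
Tefm: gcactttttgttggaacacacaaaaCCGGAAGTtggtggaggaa
Dnajc14: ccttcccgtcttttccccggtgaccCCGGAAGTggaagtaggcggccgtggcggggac
These lie at chr12:22080307-22080364 and chr19:54963372-54963429 on the plus strand, chr10:65622043-65622086 on the minus strand and chr7:1819587-1819644 on the plus strand. The differences were -1.28, -1.26, -1.13 and -0.99, with adjusted p-values of 1.9e-08, 3.0e-07, 4.4e-07 and 7.6e-07. The 8 promoters were picked after their values were seen and illustrate the motifs only.

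Across all 8610 windows, searched on both strands, the CRE was present in 4.71% of genes called higher, 3.19% of genes called lower and 2.51% of genes not called, against 1.91% of all 27457 windows in the table. The ETS site was present in 10.9% of genes called lower, 5.34% of those called higher and 6.53% of those not called, with 4.01% in the table. Its share did not follow direction between the gene lists described below. It was 12.3% for mitochondrial ribosomal proteins, 12.8% for DNA repair and 11.3% for C2H2 zinc finger factors, which moved mostly down. For splicing factors, which moved mostly up, it was 11.4%. The E-box CACGTG was also most frequent among genes called lower, at 12.9%, with 9.53% of those called higher and 8.01% of those not called (6.65% in the table). The YY1 site stood at 3.56% among higher genes, 1.78% among lower genes and 1.54% among the rest (0.798% in the table). Its share did not follow direction between the lists either. It was 10.5% for mitochondrial ribosomal proteins (6 of 57), 2.83% for C2H2 factors, 0% for DNA repair and 0.952% for splicing factors (1 of 105). The AP-1 site TGAGTCA, bound by FOS and JUN proteins, was at 4.19%, 2.97% and 3.95%, and the EGR site GCGGGGGCG at 6.18%, 5.04% and 5.04% in the same order, with 4.53% and 2.78% in the table. CCAAT was found in 39.1%, 39.5% and 37%, and the CArG box, which can contain CCAAT, in 1.47%, 1.71% and 1.35% (37.7% and 1.64% in the table). The CRE was not the only motif with a larger share among the strongest rises than among genes not called. In 49 windows of genes higher at least 2-fold outside the immediate-early list, the CRE was in 4 (8.16%). There the AP-1 site was in 6 (12.2%), the EGR site and the E-box in 5 each (10.2%) and the ETS site in 1 (2.04%). Each share is to be read against that motif's own share among genes not called, given above, and the counts are small. A match is a run of letters in the window and no measurement of binding, and GC content and gene length were not matched between the sets.

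**Figure D2:**
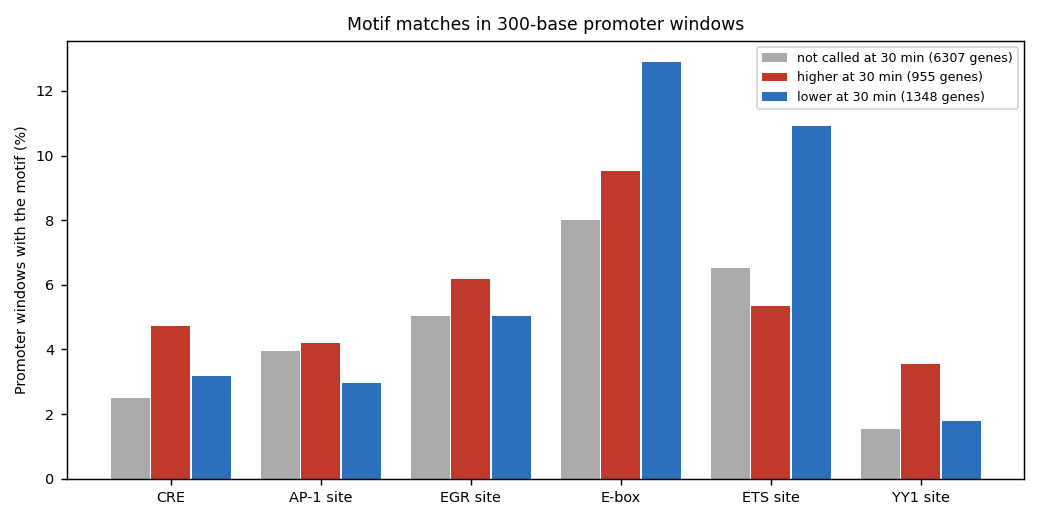
Share of 300-base promoter windows (%) that hold each of 6 motifs on either strand, for genes not called (grey), called higher (red) and called lower (blue) at 30 min. The CRE, AP-1, EGR and YY1 bars are tallest for higher genes and the ETS and E-box bars for lower genes.

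To describe the response by function, 55 gene lists holding 3568 measured genes were counted at the brightest probe set of each gene. Over all 10411 genes, 10.9% were called higher and 15.4% lower, and the median difference was 0.01. Each list is read against those shares, and no test of a list was made. Shares also differed with level. In the class below the brightest, 22.2% of probe sets were called lower and 15.7% higher. The mitochondrial ribosome, cell cycle, general transcription, nucleolar, helicase, ubiquitin ligase and deubiquitinase lists had their median level in that class. DNA repair and C2H2 factors had theirs in the middle class, where 20.8% were lower and 11.7% higher.

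**Figure D3:**
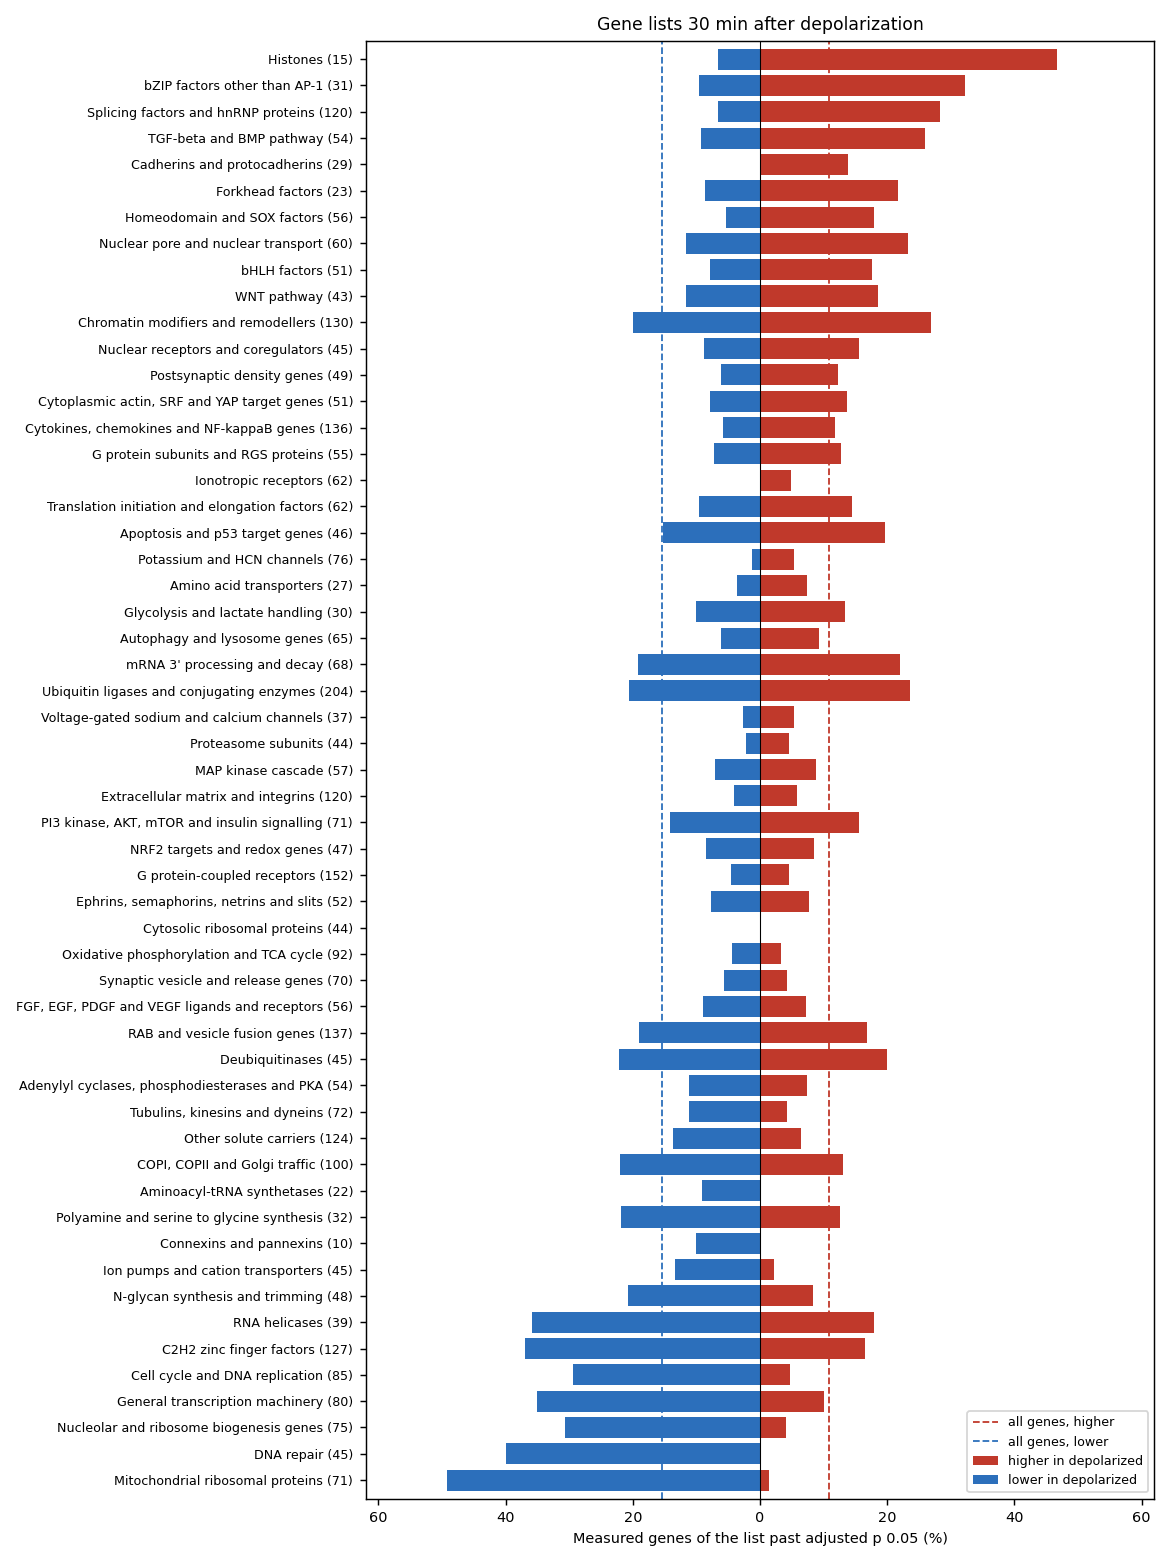
Percent of the measured genes in each of 55 lists (number in brackets) called higher (red, to the right) or lower (blue, to the left) at 30 min; dashed lines mark the shares over all genes, 10.9% and 15.4%. Mitochondrial ribosomal proteins and DNA repair stand at one end, and histones, bZIP factors and splicing factors at the other.

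The list with the largest share of falls was that of the mitochondrial ribosome, the separate ribosome that translates the transcripts of the mitochondrial genome. Of 71 nuclear-encoded subunits, 35 were called lower (49.3%), 1 higher and 35 neither. The median was -0.23, and 59 of 71 members lay below 0. Mrpl15, a large-subunit protein, read 10.56, 10.60 and 10.60 on the control arrays and 9.73, 9.75 and 9.77 on the depolarized arrays. The groups did not overlap, and the difference was -0.84 ± 0.064 (adjusted p = 1.0e-07). Mrpl16 read 9.54, 9.31 and 9.55 on the control arrays and 8.58, 8.61 and 8.78 on the depolarized arrays, again with no overlap, at -0.81 ± 0.082 (adjusted p = 2.2e-06). Mrpl1 differed by -0.80 ± 0.11. The single rise, Mrps6 at 0.20 ± 0.065, was lost when any of 4 arrays was left out, with adjusted p-values of 0.089, 0.15, 0.12 and 0.074. The count of falls was 28 to 36 under the other scalings, and the median stayed between -0.23 and -0.18.

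The cytosolic ribosome did not share that pattern in its counts. Of 44 measured cytosolic ribosomal proteins, 0 were called in either direction, all differences lay between -0.17 and 0.17, and the median was 0.04. The cytosolic list had a median level of 13.2 and the mitochondrial list one of 9.79. Neither the difference between the lists nor the part of level in it was tested. Aminoacyl-tRNA synthetases, which load transfer RNAs with amino acids, had 0 higher and 2 lower of 22, Aars1 at -0.49 ± 0.072 and Gars1 at -0.28. Among 62 translation initiation, elongation and termination factors 9 were higher and 6 lower. Etf1, the release factor that recognises stop codons, rose by 0.79 ± 0.079. Eif4enif1, which binds the cap-binding protein eIF4E, rose by 0.71 ± 0.068, and Gspt2, another release factor subunit, had a difference of -0.40 ± 0.085.

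Genes of DNA repair were called in the downward direction alone: 18 of 45 were lower and 0 higher, with a median of -0.17. They covered more than one kind of repair. Xpc, which recognises bulky lesions in nucleotide excision repair, read 9.51, 9.43 and 9.55 on the control arrays and 8.75, 8.89 and 8.87 on the depolarized arrays. Every depolarized array lay below every control, and the difference was -0.66 ± 0.065 (adjusted p = 1.5e-06). Pms2, of mismatch repair, differed by -0.63 ± 0.086. The count was 18 or 19 under the other scalings.

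Cell cycle and replication genes had 25 of 85 lower (29.4%) and 4 higher, with a median of -0.08. The falls included Pold3, a subunit of DNA polymerase delta, at -0.59 ± 0.074, and Rfc1, the large subunit of the clamp loader, at -0.47 ± 0.071; its other probe sets were also called lower, at -0.32 and -0.46. The exception in size was Ccng2, an unconventional cyclin linked to cell cycle arrest. It read 8.95, 8.83 and 8.79 on the control arrays and 9.83, 9.99 and 9.92 on the depolarized arrays, wholly apart and 1.06 ± 0.075 (adjusted p = 4.9e-08).

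Transcription factors with C2H2 zinc fingers, the largest family of DNA-binding proteins, had 47 of 127 lower and 21 higher (16.5%), with a median of -0.11. The name pattern that defined the list also took in Zfp36, an RNA-binding protein of another finger type. Zfp612 read 7.66, 7.57 and 7.58 on the control arrays and 6.03, 6.45 and 6.55 on the depolarized arrays, with no overlap and a difference of -1.26 ± 0.10 (adjusted p = 3.0e-07). In the other direction, Zfp703, a transcriptional corepressor, rose by 0.89 ± 0.092 and Zbtb10 by 0.87 ± 0.081. The general transcription machinery had 28 of 80 lower and 8 higher, at a median of -0.07. These counts moved with scaling, to 20 lower and 14 higher after median centring. They were 24 and 13 after a loess fit to level and 29 and 11 after quantile normalization. Subunits of several general factors fell, among them Gtf2e2 of TFIIE (-0.72 ± 0.085), Gtf2a1 of TFIIA (-0.68 ± 0.085) and Gtf2h3 of TFIIH (-0.61 ± 0.083). Gtf2a1 had a second, dimmer probe set that was not called, at -0.05. Taf5, a scaffold subunit of TFIID, and Ell, an elongation factor, went the other way. Taf5 read 7.45, 7.19 and 7.28 on the control arrays and 8.08, 8.11 and 8.08 on the depolarized arrays, wholly apart, at 0.79 ± 0.082 (adjusted p = 2.8e-06), and Ell rose by 0.65 ± 0.066.

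Nucleolar genes and genes of ribosome assembly had 23 of 75 lower (30.7%) and 3 higher, with a median of -0.10. Rrp1b, a nucleolar protein, read 9.85, 9.86 and 9.73 on the control arrays and 8.96, 9.04 and 8.73 on the depolarized arrays. The groups were wholly apart, and the difference was -0.90 ± 0.077 (adjusted p = 3.4e-07). Rrp8, also nucleolar, differed by -0.56 ± 0.090 and Ltv1, which assists assembly of the small subunit, by -0.51 ± 0.065. Gnl3, the nucleolar GTPase nucleostemin, was one of the 3 rises, at 0.53 ± 0.080. The medians of these 6 lists, from the mitochondrial ribosome to the nucleolus, stayed below 0 under each of the 3 other scalings, with the smallest, -0.02, for the general transcription machinery after median centring.

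**Figure D4:**
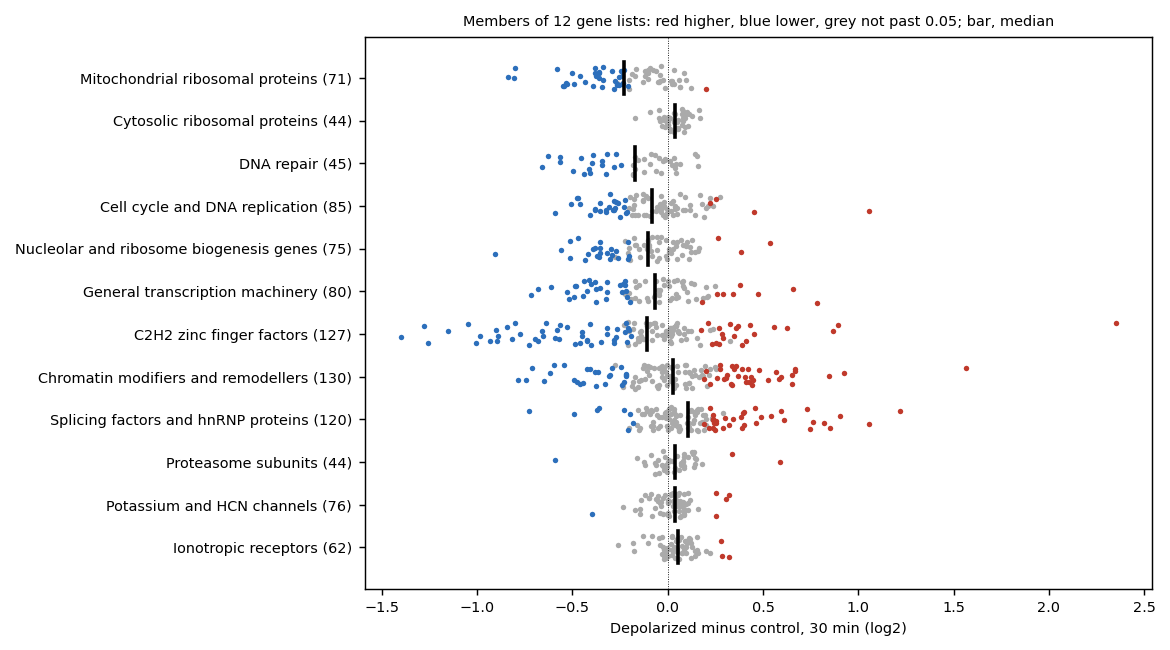
Difference at 30 min (log2, depolarized minus control) of each measured gene in 12 lists; red points were called higher, blue lower and grey neither, and the black bar is the median of the list. The mitochondrial ribosomal proteins centre on -0.23 and the cytosolic ones on 0.04.

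Splicing factors and hnRNP proteins moved mostly the other way. Of 120 measured, 34 were called higher (28.3%) and 8 lower (6.67%), and the median was 0.11, or 0.07 to 0.16 under the other scalings. Rbm15, an RNA-binding protein that guides methylation of adenosine in RNA, read 8.78, 8.76 and 8.59 on the control arrays and 9.89, 9.95 and 9.94 on the depolarized arrays. The groups were wholly apart, at 1.22 ± 0.098 (adjusted p = 1.9e-07). Prpf4b, a kinase of the spliceosome, read 10.01, 9.92 and 9.97 on the control arrays and 10.95, 11.00 and 11.11 on the depolarized arrays, also wholly apart, at 1.06 ± 0.069 (adjusted p = 2.3e-08). All 3 probe sets of Mbnl2, a regulator of alternative splicing, were called higher, at 0.90, 0.47 and 0.85. Against the trend, Clk2, a kinase of splicing regulators, fell, at -0.73 ± 0.10, as did Rbm14, at -0.49 ± 0.080.

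Chromatin modifiers were called in both directions, 35 of 130 higher (26.9%) and 26 lower, at a median of 0.03. Baz1a, a subunit of nucleosome-sliding complexes, read 7.91, 7.77 and 7.78 on the control arrays and 9.23, 9.43 and 9.49 on the depolarized arrays. The groups were wholly apart, at 1.56 ± 0.12 (adjusted p = 8.5e-08). Kmt2a, which methylates histone H3 at active genes, rose by 0.92 ± 0.090, and Phf13 by 0.84 ± 0.069. Falls were seen for the remodeller Chd9 (-0.78 ± 0.076), the Polycomb methyltransferase Ezh1 (-0.74 ± 0.077) and the acetyltransferase Kat5 (-0.71 ± 0.071). Of 15 histone probe sets 7 were called higher (46.7%) and 1 lower. Histone genes come in near-identical copies, so a probe set may read several. The probe set of Hist4h4 read 7.26, 7.16 and 7.10 on the control arrays and 8.40, 8.35 and 8.23 on the depolarized arrays, wholly apart, at 1.16 ± 0.10 (adjusted p = 6.0e-07), and that of H3c1 rose by 0.80 ± 0.078. The fall was H2ax, the histone variant phosphorylated at DNA breaks, at -0.36 ± 0.089.

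Genes of RNA export and decay were mixed. Nuclear pore and transport genes had 14 of 60 higher (23.3%) and 7 lower. Nxf1, the main export receptor for mRNA, rose by 0.65 ± 0.078, and the pore proteins Nup98 by 0.75 ± 0.058 and Nup50 by 0.63 ± 0.098. Nup37, of the pore scaffold, fell: it read 9.49, 9.44 and 9.47 on the control arrays and 8.57, 8.43 and 8.39 on the depolarized arrays, wholly apart, at -1.004 ± 0.068 (adjusted p = 3.1e-08). The second, dimmer probe sets of Nup98 and Nup37 were not called, at 0.12 and 0.03. Of 68 genes of mRNA 3' processing and decay 15 were higher and 13 lower. Cpsf6, a cleavage factor subunit, rose by 1.10 ± 0.11, Cnot4, a ligase of the deadenylase complex, by 0.82 ± 0.11, while the decapping factor Dcp1b (-0.82 ± 0.12) and the exosome subunit Exosc4 (-0.62 ± 0.080) fell. RNA helicases had 14 of 39 lower (35.9%) and 7 higher, but their median of -0.04 became 0.01 after median centring. Dhx15, a splicing helicase, rose by 0.75 ± 0.078 and Ddx24 fell, at -0.42 ± 0.072, with its second probe set not called at -0.21.

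Other families of transcription factors leaned upward by count, in lists that kept immediate-early genes other than FOS and JUN proteins. bZIP factors other than FOS and JUN proteins had 10 of 31 higher (32.3%) and 3 lower. Mafk, a small MAF protein that pairs with other bZIP factors, read 7.92, 7.98 and 7.94 on the control arrays and 9.21, 9.06 and 8.87 on the depolarized arrays, wholly apart, at 1.10 ± 0.094 (adjusted p = 3.8e-07). Homeodomain and SOX factors had 10 of 56 higher (17.9%) and 3 lower, with Pou3f3, a neural POU factor, at 0.83 ± 0.076. bHLH factors had 9 of 51 higher and 4 lower. Mxd3, which competes with MYC for its partner MAX, was one of the falls, at -0.57 ± 0.079. Forkhead factors had 5 of 23 higher and 2 lower. Foxq1 read 7.69, 7.39 and 7.54 on the control arrays and 9.29, 8.62 and 8.43 on the depolarized arrays. Its depolarized arrays spread more widely than its controls but did not overlap them, at 1.24 ± 0.17 (adjusted p = 5.1e-05). Of 45 nuclear receptors and coregulators 7 were higher and 4 lower, and the rises included the immediate-early genes Nr4a1, Nr4a3 and Nr4a2. Nr3c1, the glucocorticoid receptor, fell, at -0.84 ± 0.085 at its brighter probe set. It differed by 0.01 at a dim one, which was not called.

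Protein turnover showed many changes among ligases and few in the proteasome. Of 204 ubiquitin ligases and conjugating enzymes 48 were higher (23.5%) and 42 lower (20.6%). The list's median level was 9.49, in the class below the brightest. Its share lower was not above the 22.2% of that class, and its share higher was above the 15.7%. Asb8, a substrate adaptor of cullin ligases, read 10.39, 10.16 and 10.48 on the control arrays and 9.23, 9.09 and 9.31 on the depolarized arrays, wholly apart, at -1.13 ± 0.084 (adjusted p = 8.5e-08). A further pair of cullin adaptors fell, Kctd2 at -0.84 ± 0.064 and Klhl22 at -0.86 ± 0.073, although of the other 2 probe sets of Klhl22 one was called lower, at -1.03, and one not called, at 0.07. Rnf122 and Arih1, RING-type ligases, rose by 1.01 ± 0.11 and 0.94 ± 0.12. Deubiquitinases had 9 of 45 higher and 10 lower, including Usp12 at 0.90 ± 0.087 and Stambp at -0.68 ± 0.099. Of 44 proteasome genes 2 were higher, Psmd1 at 0.34, a call lost when one of 3 arrays was left out (adjusted p up to 0.15), and the activator Psme4 at 0.59 ± 0.073, and 1 was lower, the assembly chaperone Psmg3, at -0.59 ± 0.062. The other probe sets of Psme4 differed by -0.07 and 0.42, the first not called and the second called higher. Autophagy and lysosome genes had 6 of 65 higher, among them Gabarapl1, of the autophagosome membrane, at 0.48 ± 0.069, and 4 lower.

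The 3 lists of the secretory pathway, in the order below, had median levels of 9.42, 9.92 and 9.52, within the class below the brightest. Of all probe sets in that class, 22.2% were called lower and 15.7% higher. The share lower in these lists was no larger than that. Their falls included steps from the endoplasmic reticulum onward. N-glycan genes had 10 of 48 lower (20.8%) and 4 higher. Dolk, which makes the dolichol phosphate carrier, fell, at -0.74 ± 0.089, as did Alg8, a glucosyltransferase, at -0.54 ± 0.071. COPI, COPII and Golgi genes had 22 of 100 lower and 13 higher. Preb, the exchange factor that starts COPII coat assembly, read 9.39, 9.37 and 9.43 on the control arrays and 8.25, 8.40 and 8.61 on the depolarized arrays, wholly apart, at -0.98 ± 0.086 (adjusted p = 5.2e-07). The tether subunits Cog1 (-0.93 ± 0.10) and Trappc4 (-0.79 ± 0.063) were also lower. RAB and vesicle fusion genes had 26 of 137 lower and 23 higher (16.8%), with Ap3m2, an adaptor for synaptic and lysosomal cargo, at -0.76 ± 0.085, Vps33b at -0.69 ± 0.076 and the ESCRT subunit Vps37a higher, at 0.77 ± 0.10. The medians of these 3 lists, -0.06, -0.0021 and -0.02, were within 0.06 of 0, and those of the Golgi and RAB lists changed sign after median centring.

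Among transport and metabolism genes, calls were fewest in energy production. Oxidative phosphorylation and the TCA cycle had 3 of 92 higher (3.26%) and 4 lower (4.35%), with the extremes Uqcrh, of complex III, at 0.29 ± 0.072 and Ogdh, of the TCA cycle, at -0.31 ± 0.063. Of 30 glycolytic genes 4 were higher and 3 lower. Pfkfb3, which makes the activator of phosphofructokinase, fell, at -0.50 ± 0.060, its second probe set was not called at -0.29, and Pdp1, a phosphatase that activates pyruvate dehydrogenase, rose by 0.45 ± 0.088. Ion pumps and cation transporters had 1 of 45 higher and 6 lower, including the phosphate transporter Slc20a2 (-0.89 ± 0.090) and the zinc exporter Slc30a1 (-0.40 ± 0.084). Other solute carriers had 17 of 124 lower (13.7%) and 8 higher. Slc25a25, whose CRE is printed above, read 8.82, 8.63 and 8.70 on the control arrays and 10.17, 10.35 and 10.37 on the depolarized arrays, wholly apart, at 1.58 ± 0.079 (adjusted p = 1.6e-09). Slc2a2, a glucose transporter, rose by 0.71 ± 0.070 from a low level. Polyamine, serine and glycine genes had 4 of 32 higher and 7 lower. Sat1, which acetylates polyamines for export, rose by 0.89 ± 0.097, and Odc1, which starts their synthesis, fell, at -0.34 ± 0.061.

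Among the signalling lists the TGF-beta and BMP pathway had the largest share of rises. There 14 of 54 were higher (25.9%) and 5 lower, at a median of 0.05. Bmp2, a ligand, read 7.80, 7.87 and 7.63 on the control arrays and 9.02, 9.00 and 8.70 on the depolarized arrays, wholly apart, at 1.14 ± 0.096 (adjusted p = 3.1e-07), and its dimmer probe set was also higher, at 0.64. The activin receptor Acvr2a rose by 0.81 ± 0.12. The activin subunit Inhbb and the transducer Smad3 fell, at -0.85 ± 0.11 and -0.68 ± 0.078, the latter at the brighter of its probe sets only, the other differing by -0.03. Among FGF, EGF, PDGF and VEGF ligands and receptors 4 of 56 were higher and 5 lower. Areg read 5.78, 5.67 and 5.61 on the control arrays and 7.06, 7.36 and 7.23 on the depolarized arrays, wholly apart, at 1.53 ± 0.14 (adjusted p = 5.4e-07). Its receptor Egfr was lower at one probe set (-0.65 ± 0.11) and not called at a much dimmer one (0.16).

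In the insulin and PI3 kinase pathway 11 of 71 were higher (15.5%) and 10 lower (14.1%). Irs2, the insulin receptor adaptor, read 9.47, 9.71 and 9.66 on the control arrays and 10.87, 10.68 and 10.73 on the depolarized arrays, wholly apart, at 1.15 ± 0.099 (adjusted p = 4.3e-07). Sgk1, a kinase with fast turnover, rose by 1.01 ± 0.095. Sesn1, a stress-regulated inhibitor of mTORC1, read 9.27, 8.93 and 9.06 on the control arrays and 8.02, 7.95 and 8.26 on the depolarized arrays, wholly apart, and fell, at -1.01 ± 0.096 (adjusted p = 1.1e-06). The WNT pathway had 8 of 43 higher (18.6%) and 5 lower, with the receptor Fzd2 at -0.99 ± 0.094 and Axin1, of the destruction complex, at 0.55 ± 0.075. The MAP kinase list had 5 of 57 higher and 4 lower, including the exchange factor Sos1 at 0.63 ± 0.087.

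Cytokine and NF-kappaB genes had 16 of 136 higher (11.8%) and 8 lower. Cxcl1, a chemokine, read 6.19, 6.21 and 6.12 on the control arrays and 7.64, 7.89 and 8.31 on the depolarized arrays, from a low level and wholly apart, at 1.77 ± 0.15 (adjusted p = 4.2e-07). Nfkbia, the inhibitor that NF-kappaB itself induces, rose by 1.05 ± 0.11. Ifnar1, an interferon receptor chain, fell, at -0.48 ± 0.064, and 2 of its 3 other probe sets were also called lower. Of 152 G protein-coupled receptors and endothelins 7 were higher and 7 lower (4.61% each), with the vasoactive peptide Edn1 at 0.60 ± 0.087 and the muscarinic receptor Chrm4 at -0.51 ± 0.071. G protein and RGS genes had 7 of 55 higher and 4 lower. RGS proteins speed the shut-off of G proteins, and members went in both directions. Rgs16 rose by 0.89 ± 0.12, while Rgs8 read 8.98, 9.40 and 9.15 on the control arrays and 8.20, 8.21 and 8.17 on the depolarized arrays and fell, at -0.98 ± 0.11 (adjusted p = 6.0e-06), and Rgs12 read 9.81, 9.82 and 9.87 on the control arrays and 8.96, 8.67 and 8.95 on the depolarized arrays and fell, at -0.97 ± 0.079 (adjusted p = 2.2e-07). Rem2, a GTPase that limits calcium channel currents, rose at both probe sets, by 0.83 ± 0.10 at the brighter. Adenylyl cyclases, phosphodiesterases and protein kinase A subunits had 4 of 54 higher and 6 lower.

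Each list of structure, adhesion, excitability and the synapse had a smaller share of calls than the 26.3% of all genes at 30 min. Calls were fewer among dim probe sets (above), and these lists differed in level. Against 8.78 over all genes, every excitability and synapse list had a lower median level. It was 7.01 for ionotropic receptors, 7.22 for potassium and HCN channels and 7.67 for sodium and calcium channels. Synaptic vesicle genes stood at 8.10 and postsynaptic density genes at 8.74. Connexins were at 6.89, the ephrin list at 8.48, the extracellular matrix and integrins at 8.77 and cadherins at 8.80. Tubulins, kinesins and dyneins were at 10.10 and the actin, SRF and YAP list at 10.29. The part of level in these counts was not tested. The extracellular matrix and integrin list had 7 of 120 higher (5.83%) and 5 lower (4.17%), with Adamts1, a secreted protease, as its largest rise. It read 7.82, 7.55 and 7.48 on the control arrays and 8.99, 9.35 and 8.89 on the depolarized arrays, wholly apart, at 1.45 ± 0.14 (adjusted p = 9.2e-07). Has2, which makes hyaluronan, rose by 1.04 ± 0.12, and the ephrin receptor Epha2, in a list with 4 of 52 higher and 4 lower, by 0.92 ± 0.16. Tubulins, kinesins and dyneins had 3 of 72 higher and 8 lower, cadherins 4 of 29 higher and 0 lower, connexins 0 of 10 higher and 1 lower. Of 51 genes of cytoplasmic actin and of the SRF and YAP targets 7 were higher and 4 lower. Potassium and HCN channels had 4 of 76 higher and 1 lower, Kcnh2 at -0.40 ± 0.071. Sodium and calcium channels had 2 of 37 higher, with Scn1a at 0.44 ± 0.081, and 1 lower. Of 62 ionotropic receptors 3 were higher and 0 lower: Glra2 (0.32 ± 0.087), Chrne (0.28) and Gabrb2 (0.28 ± 0.096). The calls of Glra2 and Gabrb2 did not hold with every array left out, with adjusted p-values up to 0.069 and 0.26. Synaptic vesicle genes had 3 of 70 higher and 4 lower, with Unc13d at 0.51 ± 0.072 and Stxbp3 at -0.47 ± 0.062, and postsynaptic density genes 6 of 49 and 3. Apoptosis and p53 genes had 9 of 46 higher (19.6%) and 7 lower (15.2%), including Bcl10 at 0.72 ± 0.11 and the cell death promoter Bcl2l11 at -0.75 ± 0.081, whose 2 dim probe sets were not called. NRF2 targets and redox genes had 4 of 47 in each direction, and amino acid transporters 2 of 27 higher and 1 lower.

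Beyond the immediate-early genes and the 12 largest changes each way, the next ranks by size held further regulators. On the rising side Pafah1b1, the dynein regulator LIS1, read 9.89, 9.85 and 9.83 on the control arrays and 11.48, 11.26 and 11.40 on the depolarized arrays, wholly apart, at 1.52 ± 0.076 (adjusted p = 1.6e-09), but its second probe set differed by 0.01 and was not called. Rbbp6, a ligase that takes part in 3' end processing, read 8.41, 8.33 and 8.41 on the control arrays and 9.64, 9.83 and 9.92 on the depolarized arrays, wholly apart, at 1.42 ± 0.088 (adjusted p = 1.3e-08). Coq10b, which binds coenzyme Q in mitochondria, rose by 1.40 ± 0.085. Rnf138 and Tor1aip2 rose by 1.50 ± 0.080 and 1.40 ± 0.100 at the probe set of lowest p; the brighter one of Rnf138 differed by 0.52, and the others of Tor1aip2 by 0.38 and -0.31, the second of which was called lower. On the falling side Rreb1, a zinc finger factor downstream of RAS, read 9.18, 8.98 and 8.90 on the control arrays and 7.67, 7.69 and 7.86 on the depolarized arrays, wholly apart, at -1.28 ± 0.095 (adjusted p = 8.5e-08). Jrk, Zik1, Zfp688 and Thap7, nuclear proteins with DNA-binding domains, fell, at -1.17 ± 0.075, -1.18 ± 0.087, -1.15 ± 0.091 and -1.14 ± 0.084. Lrrc8d, a subunit of volume-regulated anion channels, read 9.78, 9.85 and 9.81 on the control arrays and 8.55, 8.70 and 8.75 on the depolarized arrays, wholly apart, at -1.15 ± 0.064 (adjusted p = 4.4e-09). Coa4, of complex IV assembly, and Sephs2, which makes selenophosphate, fell, at -1.19 ± 0.088 and -1.16 ± 0.11.

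Some genes were called in opposite directions at different probe sets, which can read different transcript ends. This held for 14 of the 1868 genes with several probe sets. Son, a splicing cofactor, had one probe set at 0.40 ± 0.065 and another at -0.50 ± 0.072. Syncrip, an hnRNP protein, had 0.40 ± 0.073 and -0.76 ± 0.086, Ip6k2, an inositol phosphate kinase, 1.05 ± 0.068 and -0.35 ± 0.073, Stau2, of RNA transport granules, 0.40 ± 0.066 and -0.31 ± 0.061, and Abcc5, a nucleotide exporter, 0.32 ± 0.075 and -0.64 ± 0.089. Each value had an adjusted p under 0.05 in limma. The gene's brightest probe set, the one counted in the lists, was the higher-called one for Son, Syncrip and Abcc5 and the lower-called one for Ip6k2 and Stau2.

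The response 2 h after depolarization had its own 3 controls, so the 2 comparisons share no arrays. At 2 h 9.51% of probe sets were called higher and 15.7% lower. Of the 1720 higher at 30 min, 601 were also higher at 2 h (34.9% of the early list, 39.8% of the 1509 in the later one), and 106 were lower. Of the 2085 lower at 30 min, 994 were also lower at 2 h (47.7% of the early list, 39.9% of the 2492 in the later one), and 112 were higher. The difference between the responses, 2 h minus 30 min, was called at 2055 probe sets (13%). The arrays of the 2 times carry different replicate numbers, and their controls also differed: the 3 controls at 2 h lay wholly apart from the 3 at 30 min at 49.5% of probe sets. Time after treatment and set of cultures cannot be told apart.

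Over the gene lists, the mitochondrial ribosome had 45 of 71 lower at 2 h and 0 higher, against 18.4% and 9.59% of all genes, and DNA repair again 18 of 45 lower. The response difference was called at 8 of the 71 and 3 of the 45. Nucleolar genes went from 23 lower and 3 higher to 10 and 7, and 15 of 75 were called for the difference, 14 of them upward. Splicing factors went from 34 higher and 8 lower to 15 and 16, with 15 called downward and 5 upward, and chromatin modifiers from 35 and 26 to 10 and 46, with 31 downward and 6 upward. The actin, SRF and YAP list rose from 7 to 24 of 51 higher, with 14 called upward and 1 downward, and NRF2 targets from 4 to 14 of 47, with 13 upward and 1 downward. Over all genes, 14.1% were called for the difference.

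Single genes turned. At the brightest probe set, 83 genes were lower at 30 min and higher at 2 h, and 67 higher and then lower. Slc16a6, a monocarboxylate transporter, is one of the former. At 30 min it read 9.01, 8.87 and 8.84 on the control arrays and 7.85, 7.68 and 7.39 on the depolarized arrays. At 2 h it read 8.80, 8.77 and 8.59 on the control arrays and 9.60, 9.32 and 9.62 on the depolarized arrays. Thus the depolarized arrays lay below all controls at the first time and above all controls at the second, and the response difference was 2.06 ± 0.15 (adjusted p = 5.9e-07). Its brighter probe set was also called lower at 30 min and higher at 2 h, at -0.77 and 0.67. Fhl2, a LIM protein and known target of serum response factor, differed by -0.48 ± 0.067 at 30 min and 1.20 ± 0.067 at 2 h, and its second probe set did likewise. Vcl, which links actin to adhesions, went from -0.50 ± 0.075 to 0.999 ± 0.075 at the dimmer of 2 probe sets that both turned, the secreted factor Metrnl from -0.84 ± 0.094 to 0.76 ± 0.094, Spsb1, a ligase adaptor, from -0.79 ± 0.11 to 0.80 ± 0.11, and Inhbb to 0.63 ± 0.11. Pfkfb3 and Slc30a1, lower at 30 min, were higher at 2 h, at 0.49 ± 0.060 and 0.82 ± 0.084.

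The opposite course was taken by Ccng2, at -0.64 ± 0.075 2 h after depolarization, and by Pnrc1, a nuclear receptor coactivator, which went from 0.87 ± 0.089 to -0.57 ± 0.089. Taf5 and Cnot4, higher at 30 min, were lower at 2 h, at -0.55 ± 0.082 and -0.54 ± 0.11. For Lysmd3 the early difference of 1.67 ± 0.087 compared with 0.14 ± 0.087 at 2 h, where it was not called, and Rbbp6 likewise with -0.18 ± 0.088. Among genes with no call for a response difference, Cpsf6 stood at 1.06 ± 0.11 at 2 h, Hist4h4 at 1.16 ± 0.10, Adamts1 at 1.57 ± 0.14, Bmp2 at 0.84 ± 0.096 and Stambp at -0.67 ± 0.099, each called in its early direction; this does not show that their responses were equal.

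**Figure D5:**
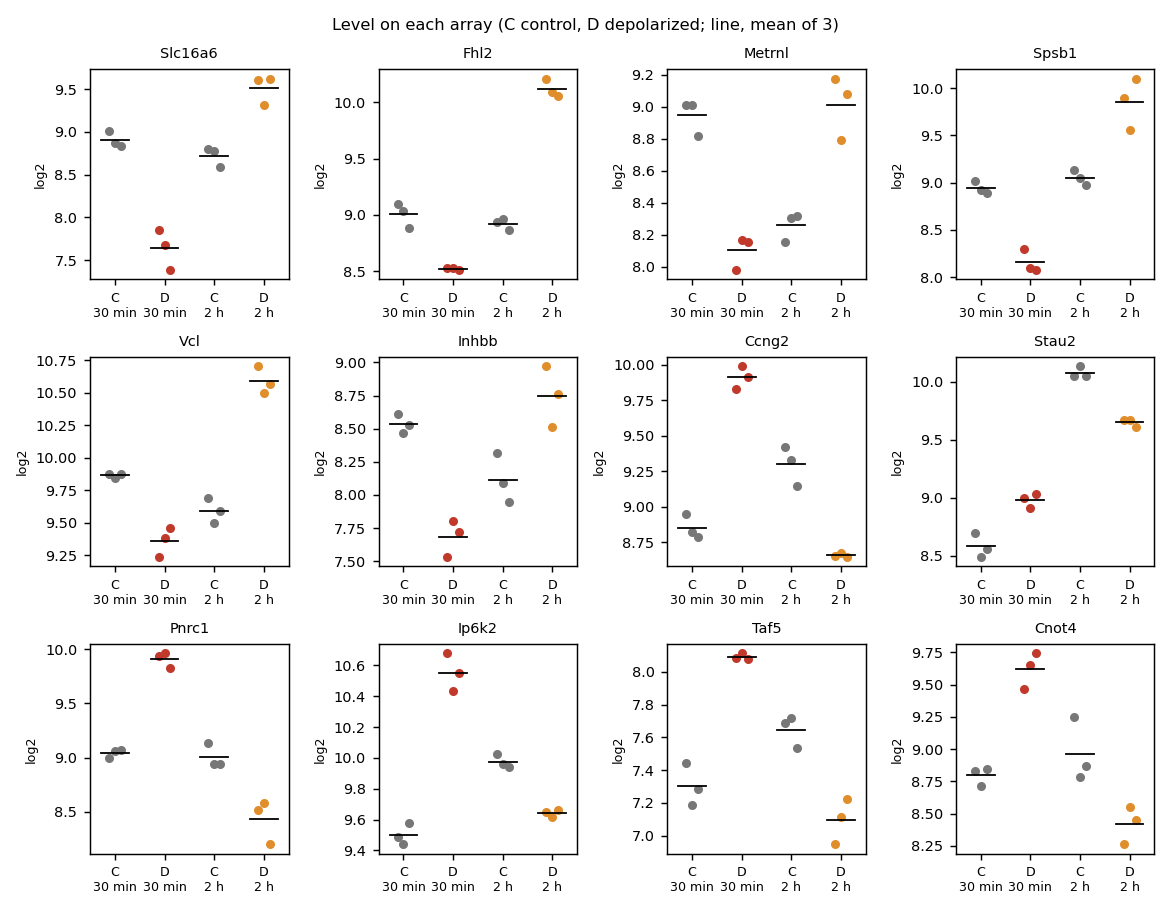
Level (log2) on each array for 12 genes in the 4 groups: C is control, D depolarized, at 30 min and 2 h after treatment; the line is the mean of 3 arrays. Where a gene has several probe sets, the one with the smallest p for the response difference is drawn. At the probe set drawn, the first 6 genes were called lower at 30 min and higher at 2 h, and the last 6 higher and then lower. For Ip6k2 and Stau2 the brightest probe set is not the one drawn and was called lower at 30 min, at -0.35 and -0.31.

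Markers of cell types were compared to see what the cultures held. RMA values carry no call of presence, so only levels can be given. Of the defining dopaminergic genes, Th stood at 7.53 in controls and 7.71 in depolarized arrays at 30 min, Slc6a3 at 7.41 and 7.75, Pitx3 at 6.39 and 6.50 and Foxa2 at 9.06 and 9.35. En1 and Lmx1b were not analysed here. Tubb3 and Map2, of all neurons, were at 11.7 and 11.6 in controls, and Rbfox3, Nefh and Thy1 at 8.66, 7.91 and 7.46. Markers of other cell types also ranged from bright to dim there. In the astrocyte list Vim and Slc1a3 were at 13.69 and 12.36 and Gfap at 8.54. In the list of endothelium, mural cells and fibroblasts Col1a1 was at 12.53 and Pecam1 at 5.45. The astrocyte list had a mean of 10.84 to 10.86 on control arrays, and the progenitor list 10.47 to 10.59. The share of each cell type was not tested. Of 15 dopaminergic markers 3 were higher (Gch1, Foxa2 and Nr4a2, which is also an immediate-early gene) and 0 lower, and the mean of the list was 7.45 to 7.56 on control arrays and 7.67 to 7.77 on depolarized ones. Pan-neuronal markers had 2 of 18 higher and 0 lower. These were Nefm and Celf4, at 0.24 ± 0.074, which lost its call without one control or one depolarized array (adjusted p = 0.15 and 0.1). The list mean was 9.99 to 10.22 on controls and 10.18 to 10.28 on depolarized arrays. Astrocyte (11), GABAergic (9), glutamatergic (5) and serotonergic (3) markers had 0 calls. Single members were called among progenitor markers (Notch1, -0.37 ± 0.091, with a second probe set at -0.40), microglia (Cd68, 0.38 ± 0.061), mural cells and fibroblasts (Pdgfrb, -0.34 ± 0.082), blood (Epor, 0.23 ± 0.070, lost when one of 3 arrays was left out, at adjusted p-values of 0.069, 0.1 and 0.12) and the oligodendrocyte lineage (Pdgfra, -0.58). The mean level of microglial markers was 6.74 to 6.82 on controls and 6.78 to 6.93 on depolarized arrays, and that of blood markers 7.38 to 7.48 and 7.46 to 7.56. The part of these markers in the changes above was not tested.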

How the data were processed

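Expression was measured on 12 Affymetrix rat arrays, 3 in each of 4 groups. The authors deposited log2 values summarised by RMA, per the submitters' processing notes; the version, and whether all arrays were normalized together, are not given in the sources used here. RMA equalises the arrays' distributions, so a general rise or fall of RNA would not show. Array medians were 8.33 to 8.43. The 57 manufacturer control rows were left out and 15866 probe sets were tested, with no filter on dim ones. Over all 12 arrays a limma 3.58.1 model (R 4.3.3) with 4 group means and 8 residual degrees of freedom gave depolarized minus control at 30 min, the same at 2 h, and the difference of both, with Benjamini-Hochberg adjustment and a threshold of 0.05. On simulated data for the 30 min comparison over 15866 probe sets, it recovered 10% of 50 changes of 0.25, 98% of 50 of 0.5 and 100% of 50 each of 1 and 2, with 8 false calls. Far fewer probe sets changed in the simulation than were called in the data, so its share for changes of 0.25 does not carry over. The number of arrays limits the precision.

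Gene symbols came from GEO's platform annotation: 12783 probe sets had 1 symbol, 312 several and 2771 none. A list counted each gene at its brightest probe set. The lists, and the genes for promoters, were chosen with earlier results of these data known. Named genes were ranks 13 to 24 by size each way outside the immediate-early list, up to 3 members of a list each way, genes with opposed probe sets, the largest response differences and the marker genes of lowest p, all with 1 symbol; not every gene that qualified is named, and 1 gene list is not reported here. Same-numbered depolarized and control cultures at 30 min did not deviate together (correlations -0.32, 0.23 and 0.05), so numbers were not treated as pairs. Alternatives were other scalings, array weights, fewer arrays or probe sets, a block and leaving out each array.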

Additional observations from a re-analysis of the deposited data

Results flagged for a closer look

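A number of the genes named above responded differently at the 2 times, by the limma test of the response at 2 h minus that at 30 min (adjusted p under 0.05, n = 3 arrays a group). All values here are that difference in log2 units, one for each probe set, so a gene with 2 probe sets can appear more than once. Time and set of cultures cannot be told apart, as said above, and no cause was tested.

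Called lower at 30 min and higher at 2 h were 13 probe sets: Slc16a6 2.06, Fhl2 1.68, Metrnl 1.60, Spsb1 1.59, Vcl 1.50, Inhbb 1.48, Rgs8 1.48, Slc16a6 1.44, Slc30a1 1.22, Vcl 1.09, Smad3 1.02, Pfkfb3 0.99 and Son 0.72. Called higher at 30 min and lower at 2 h were 10: Ccng2 -1.70, Pnrc1 -1.44, Ip6k2 -1.38, Cnot4 -1.37, Taf5 -1.34, Gabrb2 -1.01, Stau2 -0.83, Abcc5 -0.74, Glra2 -0.66 and Celf4 -0.64.

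Lower at 30 min and not called at 2 h were 33: Zfp688 1.23, Rreb1 1.19, Lrrc8d 1.11, Tefm 1.08, Coa4 1.01, Thap7 1.01, Rrp1b 1.005, Dnajc14 0.93, Nr3c1 0.89, Sephs2 0.88, Preb 0.86, Ap3m2 0.80, Rrp8 0.80, Mrpl16 0.77, Dcp1b 0.75, Syncrip 0.68, Chd9 0.65, Kat5 0.63, Xpc 0.60, Chrm4 0.52, Clk2 0.52, Vps33b 0.51, Stxbp3 0.47, Ifnar1 0.46, Odc1 0.45, Aars1 0.45, Gspt2 0.44, Ltv1 0.43, Exosc4 0.42, Abcc5 0.40, Rbm14 0.38, Mxd3 0.36 and Ip6k2 0.35. Higher at 30 min and not called at 2 h were 21: Rbbp6 -1.60, Lysmd3 -1.52, Rbm15 -1.10, Kmt2a -0.94, Rnf122 -0.93, Prpf4b -0.87, Foxq1 -0.85, Eif4enif1 -0.83, Nup98 -0.74, Axin1 -0.73, Phf13 -0.72, Nup50 -0.68, Sos1 -0.63, Ell -0.58, Nxf1 -0.57, Slc2a2 -0.53, Son -0.48, Edn1 -0.41, Gabarapl1 -0.41, Unc13d -0.36 and Cd68 -0.32.

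Lower at both times, by less at 2 h, were 18: Jrk 0.94, Zik1 0.84, Asb8 0.75, Zfp612 0.73, Zkscan1 0.66, Fzd2 0.65, Sesn1 0.62, Kctd2 0.61, Nup37 0.56, Slc20a2 0.54, Cog1 0.52, Dolk 0.47, Bcl2l11 0.46, Rgs12 0.45, Gtf2e2 0.44, Gtf2a1 0.43, Trappc4 0.38 and Klhl22 0.35. Higher at both times, by less at 2 h, were 11: Slc25a25 -1.31, Baz1a -1.16, Cxcl1 -0.99, Coq10b -0.79, Rnf138 -0.69, Zbtb10 -0.62, Zfp703 -0.62, Pafah1b1 -0.60, Nfkbia -0.55, Pou3f3 -0.51 and Dhx15 -0.42. Higher at both times, by more at 2 h, was 1: Rem2 0.45.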

How the results depend on the processing

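The counts of calls stayed within 1.5 times under every alternative run. At 30 min, leaving out one array at a time gave 1394 to 1621 probe sets higher and 1680 to 1941 lower, against 1720 and 2085 with all arrays, and 1624 to 2081 for the response difference, against 2055. With the replicate number as a block the counts were 1607 higher, 1917 lower and 1816 for the response difference; only 2 of 6 arrays at 30 min correlated best with their own number. The fit on the 6 arrays of 30 min alone gave 1671 and 2012, leaving out the dimmest 25% of probe sets 1612 and 2011, and array weights 2120 and 2652. Of 161 named probe sets called at 30 min, 155 kept the call under every alternative run, 6 lost it in at least 1 and 0 reversed. Those lost are Gabrb2, Glra2, Mrps6, Psmd1, Celf4 and Epor. Named probe sets were chosen by size of difference or low p, so this share does not describe all calls. Changes of 0.25 were mostly missed on simulated data, but far fewer probe sets changed there than were called here, so that share does not carry over. In the data, 1457 of 1539 probe sets with an observed difference of 0.25 or more were called. So were 1710 of 1796 at -0.25 or below. Observed differences are not known changes, so these counts do not measure how many changes of that size were found. Dim probe sets were called least often.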
